A study of Mus musculus with 98 samples.

Results

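The genes described here are the translation initiation factors of mouse CD4 T cells, measured by RNA sequencing in 7 sets of libraries. Gene symbols beginning with Eif and a digit from 1 to 6 were taken from the 7 count tables, which gave 55 symbols. The 4 Eif2ak kinases and the 2 rows of the sex-linked eIF2 gamma subunit, Eif2s3x and Eif2s3y, were left out. Of the 49 remaining genes, 46 had at least 10 reads in 50% or more of the libraries, in each of the 7 sets, and are the members, out of 22984 genes present in all 7 tables. Eif4e1b did not reach that minimum in any set, and neither did Eif3j1 and Eif3j2, 2 near-identical copies between which a counting program can split or drop reads. The rule uses symbols and a count minimum, not a measured difference, and all 46 also passed the filter on low counts of every model.

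The study asked how interleukin-2 (IL-2) and the transcription factors STAT5A and STAT5B, which IL-2 activates, shape helper T cells, and 88 RNA libraries in 43 groups were used. Each group had 2 libraries, except 2 groups that had 3. Cells of C57BL/6 mice came from spleen and peripheral lymph nodes that had been pooled. Naive CD4+CD44-CD25- cells were sorted and activated through CD3 and CD28 by antibodies in all sets but set 6. Set 1 held wild-type cells rested and then given human IL-2 for 18 h in a 4-day culture, against wild-type cells at rest after a 3-day culture, so that IL-2 and the extra day cannot be told apart. Sets 2, 3 and 5 held STAT5-deficient cells, with both alleles of Stat5a and Stat5b floxed and Cd4-Cre, which deletes in T cells, against wild-type cells. These cells carried retroviral vectors for STAT5, MYC, AKT or CD25 (a chain of the IL-2 receptor) or a control vector, received human IL-2 for 18 h and were harvested on day 4. In set 5 each cell population carried a pair of vectors. Set 4 held STAT5-deficient against wild-type cells after 3 days in 5 culture conditions, named Th0, Th1, Th2, Th17 and iTreg. Replicate 2 of Th1 in both genotypes has Th2 in 1 label and Th1 in its title and treatment, and the title was followed. Set 6 held wild-type FoxP3+ natural regulatory T cells (Treg) cultured overnight with IL-2 against the same kind of cells taken ex vivo. Set 7 held Th0 cells cultured for 4 days with IL-2 from Stat5a-/- Stat5b+/- mice and from Stat5a+/- Stat5b-/- mice, each with 1 functional Stat5 allele left, against wild-type cells. The ages of the mice and whether replicates came from separate mice are not given in the labels, and p-values measure the spread between these libraries, which may be partly technical. Sex-linked transcripts differed between the 2 replicates of each group of sets 2 to 6: 38 libraries had Xist at 478 to 4420 CPM and Ddx3y below 1 CPM, and 37 had Ddx3y at 66.6 to 183 CPM and Xist at no more than 22.7 CPM. Within each set all libraries with the same replicate number were of the same kind, except 1 library of set 3 that held both transcripts, so the replicates of these groups differed in sex and the number marks it. Replicates of opposite sex came from different mice, and the spread between them includes a sex difference. In set 1 Xist was 3693, 10.3 and 8.55 CPM at rest and 1813 to 2166 CPM with IL-2. This marker was thus not balanced between the groups of set 1, and its part in the IL-2 differences was not tested.

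Initiation of translation starts when eIF2, carrying GTP and the initiator tRNA, joins the small ribosomal subunit together with eIF1, eIF1A, eIF3 and eIF5. The eIF4F complex, made of the cap-binding protein eIF4E, the scaffold eIF4G and the helicase eIF4A, brings the mRNA to that subunit, which then scans for a start codon. The large subunit joins with the help of eIF5B. Brakes also act on this sequence: 4E-BP proteins hold eIF4E back until they are phosphorylated by mTORC1, and phosphorylated eIF2 blocks eIF2B, the factor that reloads eIF2 with GTP. T cells are known to build up their translation machinery when they leave quiescence, and IL-2 is one of the signals that sustain growth after activation.

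Library totals lay between 3900629 and 49096802 counted reads with a median of 16871522. The levels given here are read counts scaled to library size with TMM factors (CPM), and they were compared for 1 gene between libraries of 1 set, never between genes. Differences are log2 fold changes with the standard error (SE) of an edgeR quasi-likelihood fit over all genes, and a gene was called at a Benjamini-Hochberg adjusted p below 0.05. Stat5a lay between 1.78 and 17.0 CPM in the 6 STAT5-deficient control libraries of sets 2, 3 and 5, against 74.3 to 107 CPM in the 6 wild-type control libraries. In these sets 5 libraries stood apart. Set 2 deficient control replicate 2 had 9948 CPM of ribosomal RNA (Rn45s), and set 3 wild-type STAT5 vector replicate 2 had 3900629 reads, 1282 CPM of Xist together with 71.1 CPM of Ddx3y, and 137 CPM of Stat5a, against 394 to 637 CPM in the other 5 libraries with that vector. Set 5 deficient control replicate 1 and deficient MYC vector replicate 1 had 17.0 and 16.2 CPM of Stat5a. Set 5 deficient STAT5 with AKT vector replicate 1 carried 249976 CPM of Rn45s; it enters no comparison but shares the estimate of the spread. Counts without the first 4 and without all 5 of these libraries are given where they differ by more than 1.5 times. In bulk RNA, fewer cells of a type and less RNA per cell cannot be told apart.

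In wild-type cells given IL-2, mRNAs for nearly every arm of the initiation machinery were higher than at rest. Of 46 members, 39 were higher and 3 lower at the threshold, with a median log2 fold change of 0.76. Over all 12262 genes tested the median was -0.01, 40.7% were called higher and 40.3% lower (81.1% in all), so that a call as such was common while the members' calls lay almost all on 1 side. The summed level of the 46 members made up 1.26 to 1.30% of each IL-2 library, against 0.862 to 0.889% of each resting library. The T cell marker sum was 1650 to 1760 CPM in IL-2 libraries against 2205 to 2219 CPM at rest, and the B cell marker sum 3.02 to 3.23 CPM against 15.3 to 15.8 CPM. Myeloid markers summed to 32.4 to 35.1 CPM with IL-2, against 88.0 to 105 CPM at rest, and Rn45s was 1150 to 1389 CPM, against 2458 to 3498 CPM. Their part in the differences was not tested.

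The joining and late factors held the member with the largest difference among the 46. Eif5a encodes the factor that carries hypusine, a modified lysine, and assists peptide bond formation as well as initiation. It had 1327, 1267 and 1371 CPM in the 3 IL-2 libraries, against 318, 343 and 369 CPM in the 3 resting libraries. All 3 IL-2 libraries lay far above all 3 resting ones, a difference of 1.95 ± 0.06 on the log2 scale (SE, n = 3 each, edgeR adjusted p = 8.41e-15). Eif6, which keeps the large subunit from joining too early, rose by 1.17 ± 0.06. The other two, Eif5a2 and Eif5b, also rose, so that 4 of 4 factors of this group were called higher.

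In the cap-binding complex eIF4F and its helpers, 10 of 11 members rose. Eif4e, the cap-binding subunit, had 151, 150.5 and 166 CPM in the IL-2 libraries, against 48.9, 44.7 and 48.3 CPM at rest, a log2 difference of 1.72 ± 0.06 (edgeR adjusted p = 4.20e-14). Eif4a1, the main helicase subunit, had 1333, 1329 and 1426 CPM in IL-2 libraries, against 486, 487 and 498 CPM at rest. The groups did not overlap for either gene. Eif4g1, the scaffold, rose by 1.26 ± 0.06, and Eif4e3, a cap-binding relative of Eif4e, had 86.8, 98.7 and 92.8 CPM with IL-2, against 38.9, 41.5 and 45.3 CPM at rest. The paralogs were not moved to the same extent: Eif4a2, a second eIF4A helicase, differed by 0.22 ± 0.05 and Eif4g3, a second scaffold, by 0.10 ± 0.07, which did not pass the test (edgeR adjusted p = 0.147).

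Among the 4 genes for eIF4E-binding proteins, 2 were higher and 1 lower. Eif4ebp1 had 53.3, 54.98 and 55.4 CPM with IL-2, against 15.7, 20.5 and 20.3 CPM at rest, a difference of 1.54 ± 0.09. Eif4ebp2, another 4E-BP, had 126, 103 and 112 CPM with IL-2, against 121, 134 and 132 CPM at rest. One IL-2 library lay inside the resting range, the difference was -0.18 ± 0.07 (edgeR adjusted p = 0.0228), and the call was lost without IL-2 replicate 2 (adjusted p = 0.1002), rest replicate 2 (0.0917) or rest replicate 3 (0.0632). The brake gene Eif4ebp1 thus moved with the factors that its product restrains, in mRNA, which does not show whether the protein is phosphorylated.

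For the factors that deliver the initiator tRNA, Eif2s1, the alpha subunit of eIF2 and the site of its stress phosphorylation, had 198, 201 and 225 CPM with IL-2, against 66.9, 64.9 and 66.0 CPM at rest. Eif2s2, the beta subunit, rose by 1.07 ± 0.06. Eif2a, which despite its name is not an eIF2 subunit but a separate initiator tRNA-binding protein, was lower with IL-2 by -0.33 ± 0.07 (edgeR adjusted p = 1.30e-04). Of the 5 eIF2B subunits, 4 rose. Eif2b3, the gamma subunit, had 25.4, 26.1 and 26.0 CPM with IL-2, against 6.11, 7.03 and 8.40 CPM at rest, and Eif2b2 did not pass the test. All 6 genes listed under start-site selection rose, among them Eif1ad, which was placed there by its symbol. They ranged from Eif1 with 0.13 ± 0.05 to Eif1ax, an eIF1A gene on the X chromosome, with 1.43 ± 0.06. The Eif1 call was kept in only 1 of the 6 fits that left out 1 library. The X-linked marker Xist was 3693, 10.3 and 8.55 CPM in the 3 resting libraries and 1813 to 2166 CPM in the IL-2 libraries, and its part in the Eif1ax difference was not tested.

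The 12 eIF3 subunits, which form the largest initiation factor and hold the small subunit and eIF4G together, differed widely among themselves. Of the 12, 10 rose, from Eif3e with 0.12 ± 0.06 to Eif3b with 1.83 ± 0.07. Eif3b, a core subunit, had 362, 360.3 and 364 CPM with IL-2, against 93.7, 96.3 and 115 CPM at rest. The calls of Eif3e, Eif3i and Eif3k were kept in 2, 3 and 1 of the 6 fits that left out 1 library, and DESeq2 did not call Eif3e and Eif3k. Eif3e also lost its call with DESeq2's size factors and with a replicate block. Eif3f fell by 0.16 with an SE of 0.06, a call lost without rest replicate 3 (adjusted p = 0.153), and Eif3h differed by -0.06 ± 0.05. The mRNAs of a single complex were therefore not at a constant ratio between the 2 conditions.

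**Figure D1:**
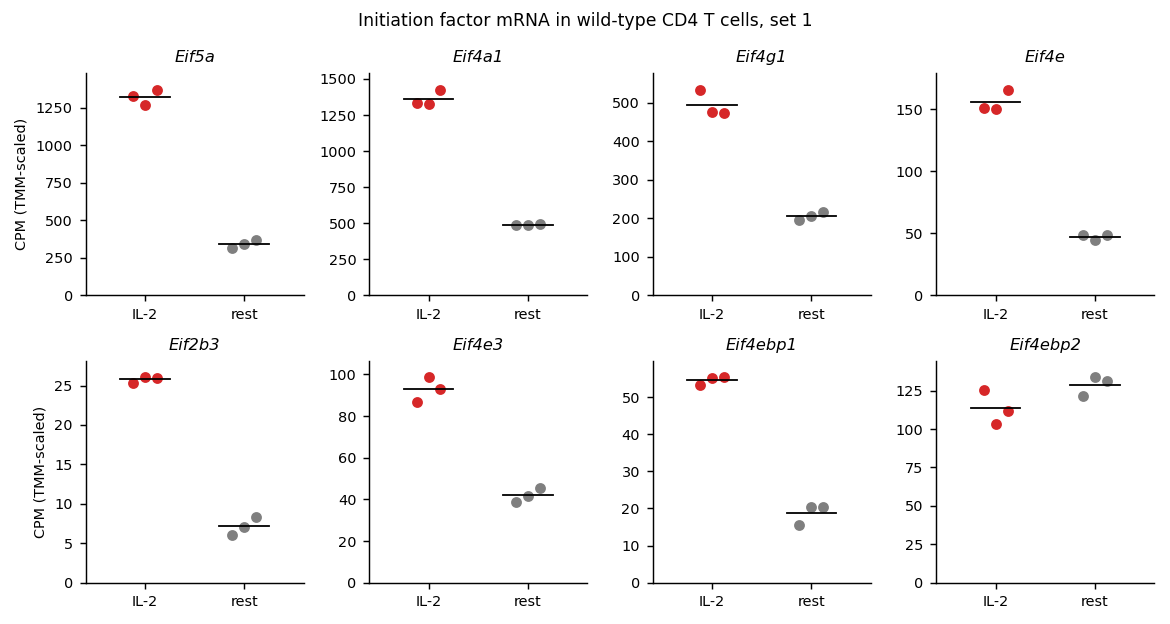
TMM-scaled CPM (y axis) of 8 members in each library of set 1, with red points for the 3 IL-2 libraries, gray points for the 3 resting libraries and a line at each mean. In 7 panels the IL-2 libraries lie above the resting ones without overlap, and in the panel of Eif4ebp2 1 IL-2 library lies within the resting range.

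Loss of STAT5 gave nearly the opposite picture in cells that all received IL-2. With control vectors, 34 members were lower and 3 higher in STAT5-deficient cells, against 30.9% of 16359 genes called lower and 28.9% called higher (59.8% in all). The members' median was -0.68, and that of all genes 0.05. The summed level of the members was 0.917 to 0.976% of the 6 deficient libraries, against 1.15 to 1.27% of the 6 wild-type libraries. Within sets 2, 3 and 5 the members called lower numbered 27, 31 and 34, and those called higher 1, 0 and 2, without the shares of all genes in single sets, which are not given here. T cell markers summed to 2369 to 2751 CPM in the deficient libraries, against 1607 to 2138 CPM in the wild-type ones, and myeloid markers to 65.3 to 253 CPM, against 40.5 to 168 CPM. Within each set the deficient libraries lay above the wild-type ones for both marker sums. B cell markers summed to 3.56 to 11.4 CPM in the deficient libraries, against 1.06 to 3.22 CPM in the wild-type ones, without overlap. Their part in the differences was not tested.

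Eif5a had a lowest, median and highest level of 263, 332 and 412 CPM in the 6 deficient libraries, against 1143, 1175 and 1564 CPM in the 6 wild-type libraries. The highest deficient library was below the lowest wild-type library, and the log2 difference was -1.88 ± 0.10 (SE, n = 6 each over 3 sets, edgeR adjusted p = 1.58e-17). Eif4a1 had 275, 392 and 476 CPM in deficient cells, against 1157, 1210.2 and 1386 CPM in wild-type cells, and Eif4e 35.9, 49.1 and 53.0 CPM, against 113, 123 and 138 CPM. Eif4ebp1 showed the largest difference of the 46 members: 9.61, 12.9 and 15.4 CPM in deficient cells, against 29.9, 56.0 and 97.4 CPM in wild-type cells, a log2 difference of -2.08 ± 0.12. It was -2.40, -2.12 and -1.73 within sets 2, 3 and 5. Eif4e3 had 30.2, 33.1 and 39.8 CPM in deficient cells, against 55.4, 103 and 140.2 CPM in wild-type cells, with -1.74, -1.82 and -0.97 within the 3 sets.

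By role, the start-site group had 6 of 6 members lower and the joining and late group 4 of 4. The group of eIF2 subunits and other initiator tRNA factors (Eif2s1, Eif2s2, Eif2a and Eif2d) had 4 of 4 lower. In eIF3 there were 7 of 12 lower and 1 higher, in eIF4F and its helpers 8 of 11 lower and 1 higher, in eIF2B 3 of 5 lower, and among eIF4E-binding proteins 2 of 4 lower and 1 higher. The 3 higher members were Eif4ebp2 with 0.38 ± 0.09, Eif4b, a cofactor of the helicase, with 0.30 ± 0.08, and Eif3f with 0.29 ± 0.07. Eif4b had 883, 946 and 989 CPM in deficient cells, against 643, 770 and 864 CPM in wild-type cells, with no overlap. Of the 39 members higher with IL-2, 33 were among the 34 lower without STAT5, which is 84.6% of the first list and 97.1% of the second. These 2 comparisons share no library, but the IL-2 list held 39 of all 46 members, so most of any list of members would lie in it. The exception of the second list was Eif2a, lower in both.

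**Figure D2:**
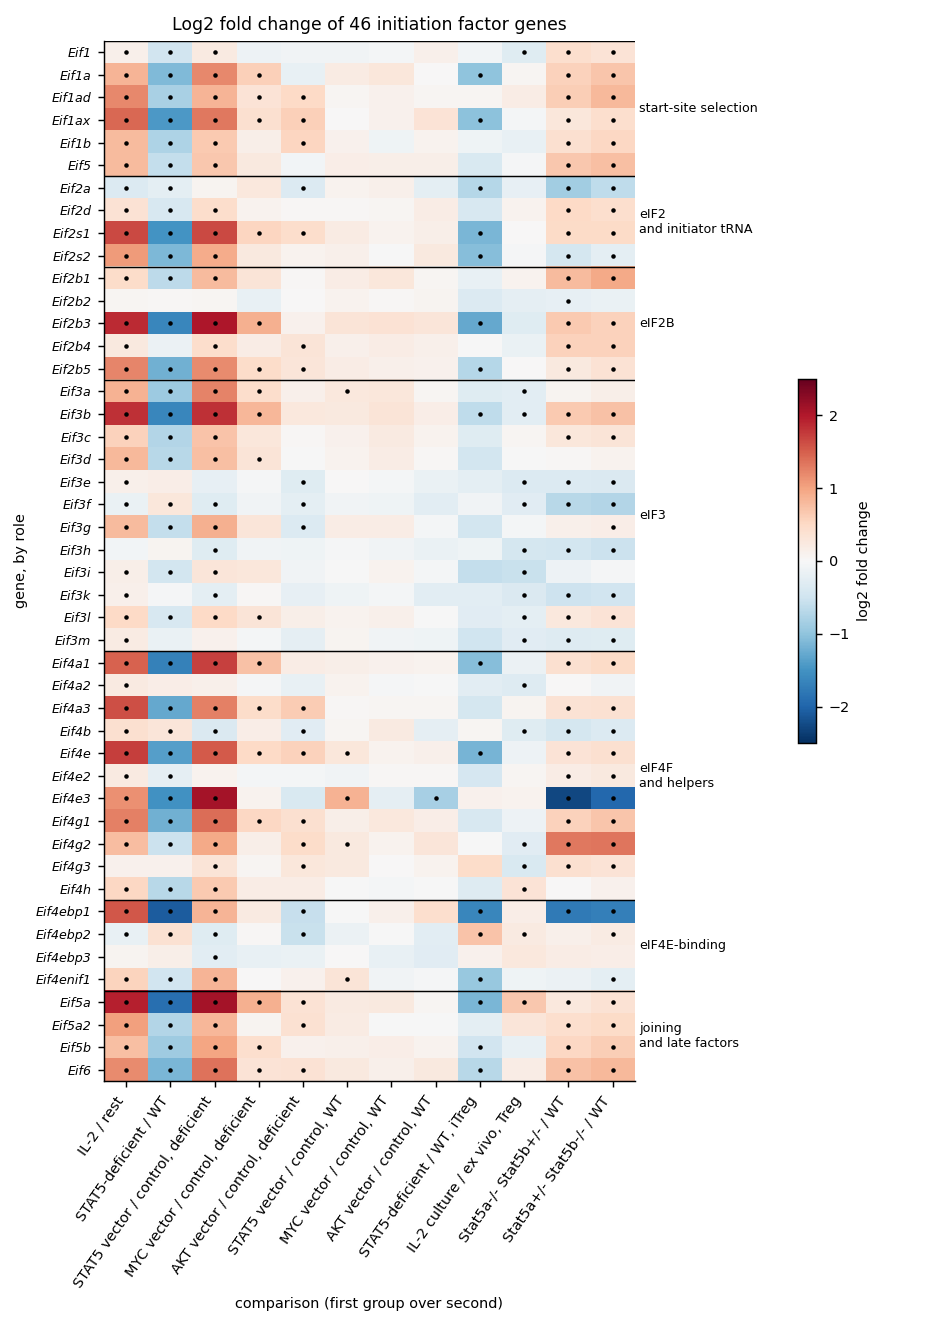
Log2 fold change (color, red higher and blue lower in the first-named group) of the 46 members in rows by role and 12 comparisons in columns, with a dot where edgeR called the member. The columns of IL-2 and of the STAT5 vector in deficient cells are mostly red and that of STAT5 loss mostly blue, while the columns of the MYC and AKT vectors in wild-type cells carry 0 and 1 dots.

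Most of these mRNAs were higher again when STAT5 was returned by vector. In STAT5-deficient cells the STAT5 vector raised 34 members and lowered 6, against 31.9% of all genes higher and 29.7% lower (61.7% in all), with a members' median of 0.77 and an all-gene median of -0.07. Stat5a reached 642 to 1087 CPM, above the wild-type level, so Stat5a mRNA was in excess and not at its natural dose. Stat5b was 31.8 to 69.9 CPM in these libraries, below the 171 to 221 CPM of the wild-type controls. Eif5a had 1019, 1583 and 1816 CPM as lowest, median and highest of 6 libraries with the STAT5 vector, against 263, 332 and 412 CPM with the control vector, a log2 difference of 2.08 ± 0.10 (edgeR adjusted p = 1.16e-18). Eif4e3 had 102, 144 and 172 CPM with the STAT5 vector, against 30.2, 33.1 and 39.8 CPM with the control vector, a difference of 2.07 ± 0.12. The 6 lower members were Eif4b, Eif3f, Eif3h, Eif4ebp2, Eif4ebp3 and Eif3k, between -0.35 and -0.25, and Eif4ebp3 kept its call in 3 of the 12 fits that left out 1 library. This comparison shares its control libraries with the loss comparison. In set 2 alone 22 members were higher and 1 lower, and Eif5a differed by 1.34 there, against 2.28 and 2.62 in sets 3 and 5.

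STAT5-restored deficient cells differed from wild-type controls in 13 members, 9 higher and 4 lower, where 38.2% of all genes were called, 19.1% in each direction. Eif4ebp1 stayed below the wild-type level: 16.2, 22.8 and 33.2 CPM as lowest, median and highest with STAT5 returned, against 29.9, 56.0 and 97.4 CPM in wild-type cells, a difference of -1.24 ± 0.12 (edgeR adjusted p = 5.19e-11). The difference was -2.17, -1.25 and -0.30 in sets 2, 3 and 5. Eif4e3 was higher by 0.57 ± 0.12, with 0.27, 0.05 and 1.38 in the 3 sets. Eif5a, Eif4a1 and Eif4e differed by 0.20 ± 0.10, 0.01 ± 0.08 and 0.14 ± 0.08 and did not pass the test, and in set 2 alone Eif4a1 and Eif4e were lower by -0.49 and -0.46. Within sets the direction of called members was not constant: 1 was higher and 11 lower in set 2, 10 higher and 1 lower in set 3, and 8 higher and 0 lower in set 5. The shares of all genes called within single sets are not given here, so this change cannot be read as particular to the members.

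In wild-type cells the same STAT5 vector moved 5 members, all higher, against 8.83% of genes called higher and 8.42% lower. Eif4e3 differed most, by 0.87 ± 0.12 (edgeR adjusted p = 5.56e-07), with 111, 169 and 265 CPM as lowest, median and highest of 6 STAT5 vector libraries, against 55.4, 103 and 140.2 CPM with the control vector. In sets 2 and 5 both STAT5 vector libraries lay above both controls, while in set 3 replicate 2, the library with few reads, lay at 111 CPM between the controls of 128 and 103 CPM. Eif4enif1, which carries eIF4E into the nucleus, Eif4e, Eif3a and Eif4g2 differed by 0.33, 0.29, 0.27 and 0.25, and the last was lost in 8 of the 12 fits that left out 1 library. The count depended on single libraries: it was 14 without set 3 STAT5 vector replicate 2, which had 3900629 reads, 2 without replicate 1 of that group and 3 without set 5 STAT5 vector replicate 1. Without the first 4 libraries that stood apart it was 13, without all 5 it was 18, and DESeq2 called 10. Within sets 2, 3 and 5 it was 1, 0 and 3. By a test of the difference between the effects, the STAT5 vector's log2 effect was more positive in deficient than in wild-type cells for 33 members. It was more negative for 1, Eif4b, which the vector lowered in deficient cells. The test called 25.4% of genes more positive and 20% more negative. In set 2 alone that test called 9 members.

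Promoters are shown here for the 5 members that rose with both IL-2 and a MYC vector and whose promoter holds the E-box CACGTG, which MYC is known to bind. They come from RefSeq on build GRCm38.p6, span 250 bases before to 50 after the annotated start, and are printed 5′ to 3′ on the strand of the gene. The tables held 48 promoters for 36 of the 46 members and none for the other 10, which include Eif4e3 and Eif4ebp1. Capitals mark CACGTG, a palindrome that reads the same on both strands, and, in Eif4e, 1 match to the STAT-type motif TTCNNNGAA, also a palindrome in its fixed letters, which does not overlap the E-boxes. Eif4e holds 2 E-boxes, Eif4a1 1, Eif4g1 2 and Eif3a 1. Eif5a has 6 annotated starts, 3 of whose promoters hold a CACGTG, and 1 is shown.
Eif4e, chr3:138527018-138527317, plus strand: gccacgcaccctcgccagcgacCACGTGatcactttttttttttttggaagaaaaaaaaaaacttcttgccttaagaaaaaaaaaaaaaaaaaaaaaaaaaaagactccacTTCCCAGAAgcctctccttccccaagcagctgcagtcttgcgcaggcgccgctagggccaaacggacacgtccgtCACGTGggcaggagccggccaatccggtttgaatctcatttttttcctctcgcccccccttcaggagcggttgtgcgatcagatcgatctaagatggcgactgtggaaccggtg
Eif4a1, chr11:69672374-69672673, minus strand: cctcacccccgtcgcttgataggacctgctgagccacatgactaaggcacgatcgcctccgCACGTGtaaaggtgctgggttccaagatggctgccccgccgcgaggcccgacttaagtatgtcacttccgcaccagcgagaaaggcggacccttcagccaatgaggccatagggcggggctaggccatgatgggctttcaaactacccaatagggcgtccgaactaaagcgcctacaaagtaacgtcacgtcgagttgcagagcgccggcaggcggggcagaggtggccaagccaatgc
Eif4g1, chr16:20672477-20672776, plus strand: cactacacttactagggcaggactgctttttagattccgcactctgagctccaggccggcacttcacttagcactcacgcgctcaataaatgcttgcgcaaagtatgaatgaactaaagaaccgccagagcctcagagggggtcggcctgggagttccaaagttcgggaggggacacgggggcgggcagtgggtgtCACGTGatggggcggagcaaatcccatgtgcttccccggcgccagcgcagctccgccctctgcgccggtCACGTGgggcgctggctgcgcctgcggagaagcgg
Eif3a, chr19:60790644-60790943, minus strand: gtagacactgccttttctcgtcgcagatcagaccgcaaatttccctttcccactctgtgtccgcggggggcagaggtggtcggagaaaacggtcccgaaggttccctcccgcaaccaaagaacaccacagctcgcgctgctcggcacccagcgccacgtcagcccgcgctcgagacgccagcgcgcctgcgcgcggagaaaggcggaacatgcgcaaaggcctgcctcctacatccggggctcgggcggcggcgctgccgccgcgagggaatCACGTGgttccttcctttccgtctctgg
Eif5a, chr11:69921226-69921525, minus strand: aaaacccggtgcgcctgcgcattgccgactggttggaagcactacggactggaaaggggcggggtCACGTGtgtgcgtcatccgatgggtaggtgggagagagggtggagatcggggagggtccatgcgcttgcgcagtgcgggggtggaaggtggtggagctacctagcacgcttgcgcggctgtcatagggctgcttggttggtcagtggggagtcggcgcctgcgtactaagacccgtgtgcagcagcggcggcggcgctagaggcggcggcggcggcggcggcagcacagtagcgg
CACGTG occurred in at least 1 promoter of 10 of the 36 members (27.8%), against 2187 of all 27025 genes in the table (8.09%), and its 15 matches in the 48 member promoters lay at 14 genome positions, since promoters of Eif5a overlap. By promoter it was in 12 of 48 (25%), against 2349 of 32851 (7.15%). TTCNNNGAA occurred for 3 of 36 members (8.33%), against 9.55% of all genes. As a check over the 46 members this is void, because only 78.3% of them have a promoter in the table. CACGTG was not confined to members that MYC raised. Of the 14 members raised by MYC in deficient cells that had a promoter, 5 held it (35.7%). Of the 22 not raised, 5 held it as well (22.7%): Eif1b, Eif3f, Eif3k, Eif4h and Eif5a2. The median MYC difference was 0.31 for members with CACGTG and 0.26 for those without. A match of letters describes the sequence and says nothing of binding.

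MYC, which IL-2 is known to induce, raised part of the members in cells without STAT5. The MYC vector raised 17 of 46 members and lowered 0 in STAT5-deficient cells, against 9.61% of genes called higher and 2.85% lower. The members' median was 0.25 and that of all genes 0.02. Myc itself was 275 to 975 CPM with the MYC vector, against 38.3 to 89.7 CPM in the deficient controls of sets 2 and 5 and 158 to 256 CPM in their wild-type controls.

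Eif5a had 807, 826, 525 and 481 CPM with the MYC vector in the deficient cells of sets 2 and 5, against 405, 412, 317 and 263 CPM with the control vector. Within each set both MYC libraries lay above both controls, and the log2 difference was 0.90 ± 0.12 (SE, n = 4 each over 2 sets, edgeR adjusted p = 1.90e-06). Eif4a1 had 734, 764, 522 and 521 CPM with the MYC vector, against 437, 476, 339.6 and 275 CPM with the control vector, a difference of 0.74 ± 0.10. Eif2b3 and Eif3b rose by 0.88 ± 0.18 and 0.84 ± 0.12, and Eif4e and Eif4g1 by 0.50 ± 0.10 and 0.53 ± 0.10. All 6 stayed below the wild-type control libraries: the highest Eif5a level with MYC in deficient cells was 826 CPM and the lowest in wild-type controls 1143 CPM.

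The genes Eif4e3 and Eif4ebp1, both lower without STAT5, were not moved by MYC at the threshold. Eif4e3 had 32.4, 39.9, 31.2 and 41.0 CPM with the MYC vector in deficient cells, against 39.8, 33.3, 30.2 and 32.9 CPM with the control vector, a difference of 0.09 ± 0.15 (edgeR adjusted p = 0.813). Eif4ebp1 had 17.9, 15.2, 11.4 and 15.1 CPM with the MYC vector, against 15.03, 15.4, 9.61 and 11.7 CPM, a difference of 0.22 ± 0.16 (adjusted p = 0.432). The MYC and control libraries overlapped for both. Set against the STAT5 vector in deficient cells, the MYC vector left 31 members lower and 4 higher, against 24.5% and 21.7% of genes. The largest difference was that of Eif4e3 with -2.09 ± 0.15, followed by Eif2b3 with -1.16 ± 0.16 and Eif5a with -1.08 ± 0.12. The 4 members higher with MYC were Eif4b, Eif4ebp2, Eif3k and Eif3f, which were also called lower with the STAT5 vector against the control vector, a comparison that shares the STAT5 libraries. In set 2 alone this comparison called 7 members, 5 lower and 2 higher. The members called with MYC in deficient cells numbered 10 in set 2 alone and 8 in set 5 alone.

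In wild-type cells the MYC vector moved no member at the threshold by edgeR, where 0.611% of genes were called higher and 0.183% lower (0.795% in all). DESeq2 and edgeR without the 5 libraries that stood apart each called 2 members. At the looser cut of an unadjusted edgeR p below 0.05 there were 9 members, and the share of all genes at that cut is not given here. Eif5a differed by 0.25 ± 0.12 there. Myc was 283 to 406 CPM with the MYC vector in wild-type cells, against 158 to 256 CPM with the control vector, a smaller relative difference than in deficient cells, so the vector's effects are set side by side at unequal changes of Myc. A test of the difference between the MYC effects in deficient and wild-type cells called 2 members, where 1.24% of genes were called higher and 0.0183% lower: Eif4a1 with 0.63 ± 0.15 (edgeR adjusted p = 0.0188) and Eif5a with 0.65 ± 0.17 (adjusted p = 0.0498). The count was 4 without set 5 deficient control replicate 1, and 0 without set 2 wild-type control replicate 2, set 5 deficient control replicate 2, set 5 deficient MYC replicate 1 or set 5 wild-type MYC replicate 2. Eif5a lost its call in 14 of the 16 fits that left out 1 library, and Eif4a1 in 4. The count was 1 without any other of the 16 libraries but set 2 wild-type control replicate 1, and 0 within either set. Without the first 4 libraries that stood apart it was 1, and without all 5 it was 5.

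Adding a MYC vector to the STAT5 vector raised 16 members further and lowered 0 in the deficient cells of set 5, against 4.25% of genes higher and 1.77% lower (6.02% in all). Eif5a had 2404 and 2817 CPM with both vectors, against 1739 and 1816 CPM with STAT5 and a control vector. Eif4ebp1 had 52.1 and 49.2 CPM with both vectors, against 33.2 and 24.4 CPM, a difference of 0.81 ± 0.20 (edgeR adjusted p = 0.0101). Both libraries with the pair of vectors lay above both STAT5 libraries for these 2 genes, while Eif4e3 had 156 and 159 CPM with both vectors, against 150 and 172 CPM, a difference of -0.03 ± 0.20. The members made up 1.76 to 1.87% of the libraries with both vectors, against 1.51 to 1.53% with STAT5 and the control vector. Eif5a lost its call without any 1 of the 4 libraries and Eif4ebp1 without 3 of them. The count was 2 without either STAT5 replicate and 0 without replicate 2 of STAT5 with MYC, while DESeq2 called 26, as did edgeR without the 5 libraries that stood apart.

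The AKT vector, which supplies the kinase upstream of mTORC1, moved members in both directions in STAT5-deficient cells. It raised 14 members and lowered 7, against 17% of genes called higher and 11.3% lower, with a members' median of 0.06. Akt1 was 651 to 860 CPM with the AKT vector in deficient cells, against 131 to 172 CPM in the deficient controls of sets 3 and 5. Eif4a3, a helicase of the exon junction complex, rose by 0.63 ± 0.10, Eif1ax by 0.60 ± 0.12, Eif4e by 0.57 ± 0.10 and Eif1b by 0.53 ± 0.11. Eif4e had 68.2, 63.2, 74.1 and 62.1 CPM with AKT in sets 3 and 5, against 52.5, 46.8, 45.4 and 35.9 CPM with the control vector, without overlap. Eif5a, Eif2s1 and Eif4g1 also rose, by 0.37 ± 0.12, 0.44 ± 0.11 and 0.40 ± 0.10, while Eif4a1 differed by 0.19 ± 0.10 and Eif3b by 0.27 ± 0.12 and neither passed the test. The AKT and MYC comparisons share the control libraries of set 5, and the vectors' effects were not tested against each other.

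The 7 lower members included the 4E-BP genes Eif4ebp1 and Eif4ebp2. Eif4ebp1 had 8.62, 7.98, 6.77 and 7.98 CPM with AKT, against 13.1, 12.7, 9.61 and 11.7 CPM with the control vector, so all 4 AKT libraries were below all 4 controls. The difference was -0.57 ± 0.16 (edgeR adjusted p = 6.30e-03), and -0.49 without set 5 deficient control replicate 2 (adjusted p = 0.0575). Eif4ebp2 fell by 0.56 with an SE of 0.11, and no eIF3 member rose while Eif3e, Eif3f and Eif3g fell, Eif3e in only 2 and Eif3g in only 4 of the 8 fits that left out 1 library. The count of 21 members was 11 without set 5 deficient control replicate 2, 9 in set 3 alone and 11 in set 5 alone. Myc was 10.3 to 38.3 CPM with AKT in deficient cells, against 38.3 to 97.6 CPM in the deficient controls of sets 3 and 5, and its part in these differences was not tested.

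Wild-type cells with the AKT vector had 1 member called, against 1.35% of genes called higher and 3.69% lower (5.04% in all). Eif4e3 had 60.7, 62.8, 37.4 and 36.3 CPM with AKT in sets 3 and 5, against 128, 103, 67.8 and 55.4 CPM with the control vector, and in each set both AKT libraries were below both controls. The difference was -0.82 ± 0.14 (edgeR adjusted p = 1.85e-04). The count was 2, 3 and 2 without set 5 wild-type AKT replicate 1, AKT replicate 2 and control replicate 2, 3 with a replicate block, 5 by DESeq2, and 5 without the 5 libraries that stood apart. Akt1 was 457 to 581 CPM with the AKT vector in wild-type cells, against 296 to 342 CPM with the control vector, a smaller relative difference than in deficient cells. A test of the difference between the AKT effects in deficient and wild-type cells called 4 members, against 7.43% of genes higher and 3.12% lower: Eif4ebp1 with -0.99 ± 0.21, Eif4a3 with 0.57 ± 0.14, Eif4e with 0.45 ± 0.14 and Eif1ad with 0.45 ± 0.12. The call of Eif4e was lost in 8 of 16 fits that left out 1 library. Eif4ebp1 differed by 0.41 ± 0.14 with AKT in wild-type cells, which did not pass the test (adjusted p = 0.0777). The 4 became 2 without set 5 wild-type AKT replicate 2, and were 0 in set 3 alone and 4 in set 5 alone.

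The remaining vectors entered no comparison. With the CD25 vector in the deficient cells of set 3, Eif5a had 319 and 295 CPM, against 347 and 305 CPM with the control vector, and Eif4e3 had 31.2 and 33.9 CPM, against 35.1 and 30.3 CPM, with overlapping libraries for both. With STAT5 and AKT vectors together in deficient cells, Eif5a had 1265 and 1830.0 CPM, the first in the library rich in Rn45s.

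**Figure D3:**
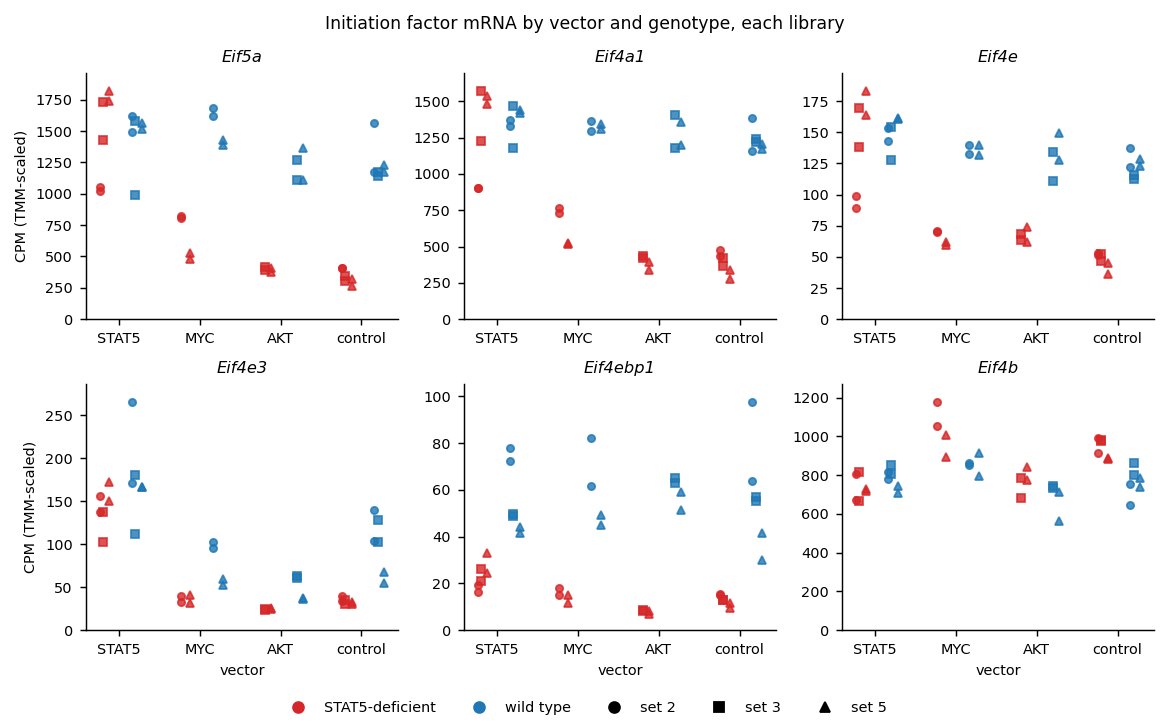
TMM-scaled CPM (y axis) of 6 members in each library of sets 2, 3 and 5 by vector (x axis), with STAT5-deficient cells in red, wild-type cells in blue and the set given by the symbol. With control vectors the deficient libraries lie below the wild-type ones for 5 genes and above them for Eif4b, and for Eif4ebp1 the deficient libraries with the STAT5 vector lie between 16.2 and 33.2 CPM.

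In 3-day cultures, the effect of STAT5 loss on the members differed between iTreg and the other conditions. Averaged over the 5 conditions of set 4, 11 members were lower and 3 higher in STAT5-deficient cells, against 12.1% of genes lower and 15.1% higher. Eif4e3 had the largest mean difference, -0.98 ± 0.09 (edgeR adjusted p = 1.31e-06), followed by Eif2a with -0.60 ± 0.09 and Eif4ebp1 with -0.53 ± 0.11. The 3 higher members were Eif4g2, a scaffold without an eIF4E-binding site, with 0.52 ± 0.09, Eif5a2 with 0.45 ± 0.15 and Eif4g3 with 0.34 ± 0.11. The count of 14 was 9 without wild-type Th0 replicate 2, and 22 by DESeq2.

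The iTreg condition had the most members called of the 5. In deficient iTreg cultures 15 members were lower and 1 higher, against 11.3% of genes in each direction, and the median was -0.39. Eif5a had 719.7 and 689 CPM in deficient iTreg cultures, against 1596 and 1508 CPM in wild-type ones, a difference of -1.14 ± 0.15 (edgeR adjusted p = 5.49e-05). Eif4e had 77.5 and 64.3 CPM in deficient cells, against 175 and 144 CPM in wild-type cells. Eif4ebp1 had 26.1 and 36.3 CPM in deficient cells, against 85.1 and 109 CPM in wild-type cells, a difference of -1.64 ± 0.26. The wild-type and deficient libraries did not overlap for these 3 genes. All 15 lower members were also lower without STAT5 in the vector experiments, which is 44.1% of that list of 34 and 100% of this one. Of the 15, 14 were among the 39 higher with IL-2, which is 35.9% of the IL-2 list and 93.3% of this one. No library is shared with either, but the lists of 34 and 39 each held most of the 46 members, so a large overlap is likely by number alone. The 1 higher member was Eif4ebp2 with 0.71 ± 0.23, a call lost without deficient replicate 1, wild-type replicate 1 or wild-type replicate 2 (adjusted p = 0.343, 0.153 and 0.120). The count was 8 without wild-type iTreg replicate 1.

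A test of the STAT5 effect in iTreg against its mean in the other 4 conditions called 16 members, 15 of them more negative in iTreg, where 8.95% of genes were called more negative and 7.75% more positive. Eif5a differed between them by -1.13 ± 0.16, Eif4a1 by -1.14 ± 0.16, Eif4e by -1.21 ± 0.21 and Eif4ebp1 by -1.38 ± 0.28. Eif4e3 was the exception, with 1.37 ± 0.23 (edgeR adjusted p = 7.86e-04). The count was 9 without wild-type iTreg replicate 1. Myeloid markers summed to 73.3 to 128 CPM in deficient iTreg cultures, against 155 to 234 CPM in wild-type ones, and to higher sums in deficient than in wild-type Th0, Th1 and Th17 cultures. B cell markers summed to 5.17 to 6.31 CPM in deficient iTreg cultures, against 1.04 to 2.19 CPM in wild-type ones. Their part in the difference was not tested.

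In the other 4 conditions Eif4e3 was the 1 member lower in each. It had 24.1 and 25.8 CPM in deficient Th0 cells, against 67.6 and 48.8 CPM in wild-type ones, and 36.2 and 31.7 CPM in deficient Th17 cells, against 120.4 and 116 CPM. The differences were -1.22 ± 0.20 in Th0, -1.16 ± 0.20 in Th1, -0.83 ± 0.20 in Th2 and -1.80 ± 0.21 in Th17, each called by edgeR, with adjusted p = 0.0820 in Th2 without deficient replicate 2. In iTreg, Eif4e3 had 35.8 and 48.0 CPM in deficient cells, against 36.3 and 41.0 CPM in wild-type cells, so wild-type iTreg cultures were at the level of deficient ones. Members called higher and lower numbered 0 and 3 in Th0 (3.81% and 2.68% of genes, 6.49% in all), 3 and 3 in Th1 (6.22% and 5.52%), 5 and 2 in Th2 (7.43% and 4.1%) and 1 and 1 in Th17 (2.33% and 2.56%). Eif4g2 was higher in deficient cells in Th1 (0.96 ± 0.20), Th2 (0.93 ± 0.20) and Th17 (0.78 ± 0.20), the first lost without deficient replicate 1, the second without deficient replicate 2 and the last without any 1 of its 4 libraries.

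Counts this small moved with single libraries. In Th0 the count was 1 without deficient replicate 1, deficient replicate 2 or wild-type replicate 2. In Th1 it was 3 without replicate 1 of either genotype. In Th2 it was 3 without deficient replicate 1 and 0 without deficient replicate 2. In Th17 it was 1 without deficient replicate 1, deficient replicate 2 or wild-type replicate 2. Fitted on their own libraries, the Th1 comparison called 3 members and the Th2 comparison 1.

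**Figure D4:**
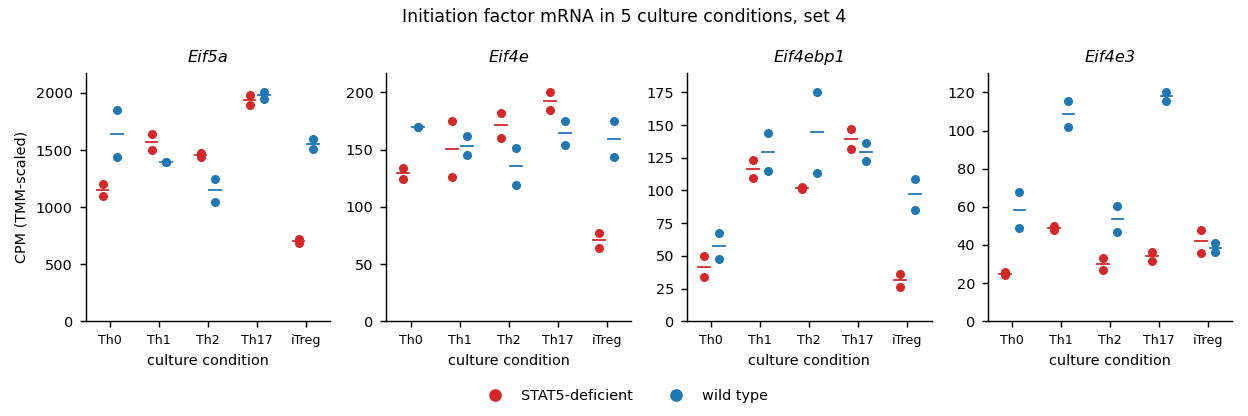
TMM-scaled CPM (y axis) of 4 members in the 2 libraries of each culture condition of set 4 (x axis), with STAT5-deficient cells in red, wild-type cells in blue and a line at each mean. Eif5a and Eif4e are lowest in the 2 deficient iTreg libraries, Eif4ebp1 has its lowest mean there with 1 deficient Th0 library in between, and Eif4e3 is lower in the deficient libraries of every condition but iTreg.

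Natural regulatory T cells gave no general rise with IL-2. After overnight culture with IL-2, 3 members were higher and 14 lower than ex vivo, against 15.2% of genes higher and 15.7% lower, with a members' median of -0.11. Eif5a had 643 and 752 CPM after IL-2 culture, against 429.6 and 439 CPM ex vivo, and both cultured libraries lay above both ex vivo ones, a difference of 0.68 ± 0.09 (edgeR adjusted p = 9.29e-04). Eif4h, a helicase cofactor, and Eif4ebp2 were the other two, with 0.34 ± 0.06 and 0.22 ± 0.06, and that of Eif4ebp2 was lost without 3 of the 4 libraries. The lower members were mostly eIF3 subunits, 9 of 12, between -0.56 ± 0.08 for Eif3i and -0.24 ± 0.06 for Eif3l. Eif4e, Eif4a1 and Eif4ebp1 differed by -0.12 ± 0.08, -0.14 ± 0.09 and 0.16 ± 0.19 and did not pass the test. The count of 17 was 9 without ex vivo replicate 1. B cell markers summed to 99.9 to 256 CPM with IL-2 and 101 to 219.5 CPM ex vivo, myeloid markers to 163 to 394 CPM and 221 to 525 CPM, and their part was not tested. Culture and IL-2 cannot be told apart in this comparison.

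In cells with 1 functional Stat5 allele, cultured 4 days with IL-2, the members split. In Stat5a-/- Stat5b+/- cells 26 were higher and 11 lower than in wild-type cells, against 29.2% of genes higher and 28.4% lower. In Stat5a+/- Stat5b-/- cells 28 were higher and 11 lower, against 28.7% and 28.3%. Both comparisons use the same 2 wild-type libraries, and the members' medians were 0.26 and 0.34. All 6 genes of the start-site group and all 4 joining and late factors were higher in both genotypes.

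Most members that were lower in the fully deficient cells of the vector experiments were higher in these cultures with 1 allele left. The cultures are unlike, since the vector experiments gave IL-2 for 18 h to cells carrying vectors, and in the 3-day Th0 cultures of set 4 full loss of STAT5 left 3 members lower and 0 higher, so allele number and culture cannot be told apart. Eif5a had 1379 and 1381 CPM in Stat5a-/- Stat5b+/- cells and 1474 and 1479.9 CPM in Stat5a+/- Stat5b-/- cells, against 1081 and 1209 CPM in wild-type cells. Both genotypes lay above wild type, by 0.27 ± 0.07 and 0.37 ± 0.07 (edgeR adjusted p = 5.42e-03 and 7.69e-04). Eif4g2 had 1655 and 1717 CPM in Stat5a-/- Stat5b+/- cells and 1725 and 1716 CPM in Stat5a+/- Stat5b-/- cells, against 677 and 679 CPM in wild-type cells, the largest rise among the 46 members. Of the 34 members lower in fully deficient cells of sets 2, 3 and 5, 24 were higher in Stat5a-/- Stat5b+/- cells, which is 70.6% of the 34 and 92.3% of the 26 higher there. Only 4 were lower, 11.8% of the 34 and 36.4% of the 11 lower there. No library is shared between those comparisons, but the 34 were already most of the 46 members, so a large overlap is likely by number alone.

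The 4 were Eif4e3, Eif4ebp1, Eif2a and Eif2s2. Eif4e3 had 11.9 and 12.4 CPM in Stat5a-/- Stat5b+/- cells and 15.01 and 15.4 CPM in Stat5a+/- Stat5b-/- cells, against 54.0 and 63.8 CPM in wild-type cells. Every library with 1 allele was below both wild-type libraries, by -2.28 ± 0.12 and -1.95 ± 0.11 (edgeR adjusted p = 7.99e-08 and 1.66e-07). Eif4ebp1 had 24.1 and 18.9 CPM in Stat5a-/- Stat5b+/- cells and 24.2 and 20.6 CPM in Stat5a+/- Stat5b-/- cells, against 70.4 and 77.3 CPM in wild-type cells, again without overlap. Eif2a was lower by -0.87 ± 0.07 and -0.64 ± 0.06. The eIF3 genes Eif3e, Eif3f, Eif3h, Eif3k and Eif3m were lower in both genotypes, while Eif3b was higher by 0.65 ± 0.06 and 0.74 ± 0.06. Myeloid markers summed to 21.2 to 64.2 CPM in the cells with 1 allele, against 139 to 153 CPM in wild-type cells, and Rn45s was 3165 to 6712 CPM, against 2171 to 2342 CPM. Their part was not tested.

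**Figure D5:**
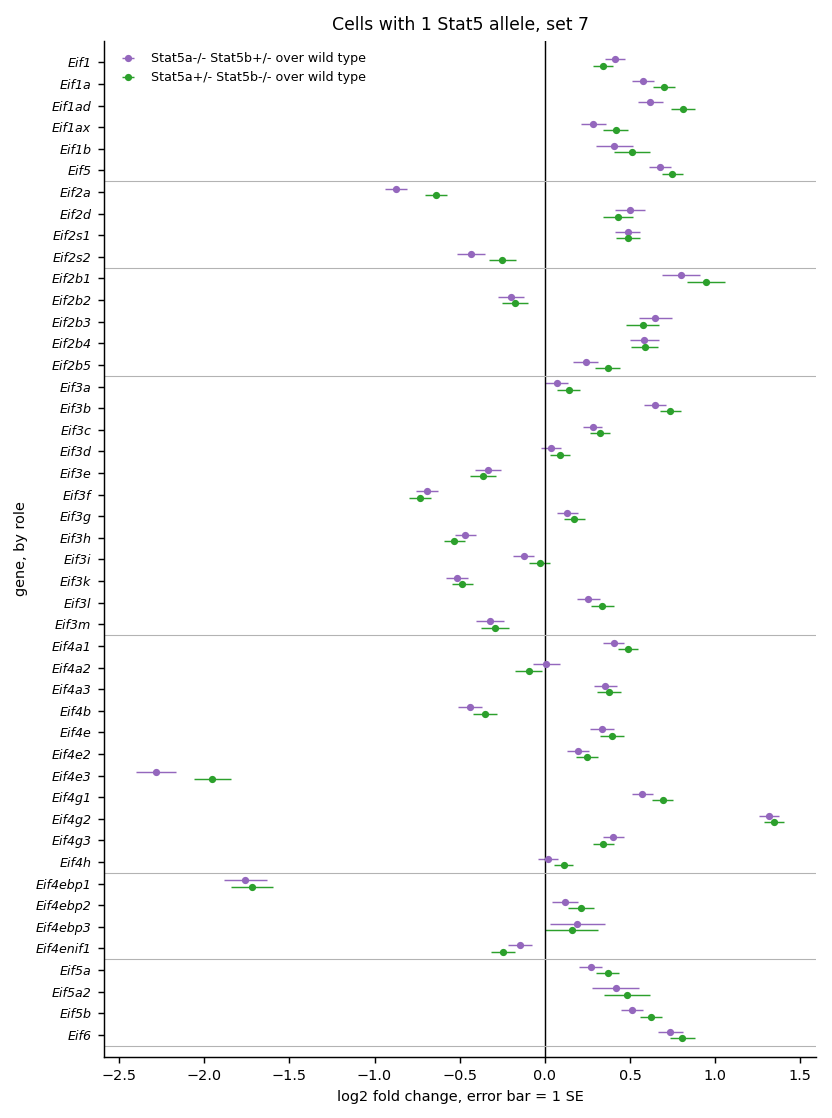
Log2 fold change over wild type (x axis, error bar 1 SE, n = 2 libraries each) of the 46 members in rows by role, purple for Stat5a-/- Stat5b+/- and green for Stat5a+/- Stat5b-/- cells of set 7. Eif4e3 and Eif4ebp1 lie near -2 in both genotypes and Eif4g2 above 1, and most other members lie between 0 and 1.

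Across the sets, Eif4e3 and Eif4ebp1 were lower both in fully deficient cells with control vectors and in cells with 1 allele, but they differed in what else moved them. Eif4e3 fell in every comparison of cells with less STAT5 tested singly except iTreg, rose with the STAT5 vector in both genotypes, was not moved by MYC at the threshold, and fell with AKT in wild-type cells. Eif4ebp1 was only in part restored by the STAT5 vector, rose when MYC was added to it, and fell with AKT in deficient cells. Eif5a, Eif4a1, Eif4e and Eif2s1 fell with full loss of STAT5 in the vector experiments and in iTreg cultures, rose with the STAT5 vector and with MYC in deficient cells, and were higher with 1 allele.

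Other genes of the pathway that are no members moved in both directions. Of 44 listed regulators and elongation or termination factors, 42 were tested. With IL-2, 21 were higher and 15 lower, against 40.7% and 40.3% of all genes. In STAT5-deficient cells with control vectors 9 were higher and 23 lower, against 28.9% and 30.9% of all genes. Eif2ak3 (PERK), a kinase that phosphorylates eIF2 alpha under stress of the endoplasmic reticulum, differed by -1.55 ± 0.07 with IL-2 and by 2.32 ± 0.11 without STAT5. Pdcd4, an inhibitor of eIF4A, differed by -0.63 ± 0.05 and 0.67 ± 0.07. Eif2ak3 and Pdcd4 were therefore lower with IL-2 and higher without STAT5, against the direction of Eif4ebp1. Other listed regulators went either way. Paip2 differed by -0.53 ± 0.05 with IL-2 and 0.51 ± 0.09 without STAT5. Eef2k and Larp1 moved in the direction of Eif4ebp1, by 0.65 ± 0.11 and 1.48 ± 0.06 with IL-2. Without STAT5 they differed by -0.47 ± 0.12 and -1.55 ± 0.11. The other Eif2ak kinases did not follow Eif2ak3. Eif2ak2 was lower in both comparisons, by -1.20 ± 0.07 and -0.80 ± 0.13, and so was Eif2ak4, by -0.19 ± 0.07 and -0.28 ± 0.07. Eif2ak1 was not called in either. Abce1, which splits ribosomes for a new round, differed by 1.88 ± 0.06 with IL-2, -1.54 ± 0.09 without STAT5 and 0.88 ± 0.11 with MYC in deficient cells. Dhps and Dohh, the enzymes that make hypusine on eIF5A, differed by 0.98 ± 0.08 and 0.96 ± 0.08 with IL-2 and by -0.65 ± 0.08 and -0.87 ± 0.12 without STAT5, the same direction as Eif5a itself. With the STAT5 vector in deficient cells 23 of these genes were higher and 7 lower, against 31.9% and 29.7% of all genes. With MYC 12 were higher and 0 lower (9.61% and 2.85%), and with AKT 10 and 7 (17% and 11.3%). Deficient iTreg cultures had 3 higher and 10 lower, against 11.3% of genes in each direction. Treg cultured with IL-2 had 4 higher and 12 lower, against 15.2% and 15.7%.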

How the data were processed

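Poly(A)-selected RNA of mouse CD4 T cells was sequenced. Per the submitters' processing notes, the authors used TopHat2, Bowtie2 and HTSeq on mouse build mm9, with no versions given; the strand setting of the counting is not given in the sources used here. The deposited values are raw read counts per gene, 1 table per set, taken as deposited. Members with processed pseudogenes or close copies may share reads with them. The ChIP peak lists of the series were not used here, and its histone mark and input samples were not analysed here. In sets 4 and 6, 27 rows named as dates were left out, at most 0.27% of a library, and 250 symbols of sets 1 and 3 were given back a hyphen.

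Members and gene lists were chosen with earlier results of these data known. Counts were fitted with edgeR 4.0.16 in R 4.3.3: filterByExpr, TMM, glmQLFit with 1 mean per group, glmQLFTest, and Benjamini-Hochberg adjustment over all genes. Sets 2, 3 and 5 shared 1 model of 52 libraries in 26 groups, and a comparison spanning sets averages the within-set differences. Sets 1, 4, 6 and 7 had a model each. With 2 libraries in most groups, the spread rests on the other groups of a model, and in sets 6 and 7 on 2 and 3 residual degrees of freedom. The SE is the absolute log2 fold change divided by the square root of F. Tests were also tried on simulated counts, which took their spread from the fits of the real counts. Totals per library set the precision, and PCR copies were not distinguished.

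The genes given by library were a fixed list of 14 members, plus up to 6 per direction and comparison with the largest fold change among called members without overlap; others named were chosen after their values were seen. Same-numbered libraries deviated together in sets 2 and 4, where all 15 and all 45 pairs of groups had a correlation above 0.1 (lowest 0.107 in each), and in the 1 pair of set 6 (0.583); the numbers come from the titles and, in sets 2 to 6, go with the sex-linked transcripts. The tests of a difference between STAT5 effects, between AKT effects and between iTreg and the other conditions were added after the data were seen. Alternatives were DESeq2 1.42.0, its size factors, no filter, a fit of the compared libraries alone, each set alone, a replicate block, each library left out, and the 4 and 5 libraries that stood apart left out, the last 2 chosen after the data were seen. Promoters came from RefSeq on GRCm38.p6, a later build than that of the counts, and were matched by symbol.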

Additional observations from a re-analysis of the deposited data

Results flagged for a closer look

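Effects of the same vector or of the same gene loss differed between groups in 4 comparisons, each by an edgeR test of the difference itself. The STAT5 vector's effect differed between STAT5-deficient and wild-type cells for 34 members, the AKT vector's effect for 4 and the MYC vector's effect for 2. Of all genes, these tests called 25.4% more positive and 20% more negative for STAT5. For AKT they called 7.43% and 3.12%, so the AKT count was near the share of all genes, and for MYC 1.24% and 0.0183%. For MYC these were Eif4a1, whose log2 effect was 0.63 larger in deficient cells, and Eif5a, whose effect was 0.65 larger. Eif5a lost its call in 14 of the 16 fits that left out 1 library, and Eif4a1 in 4. The effect of STAT5 loss in iTreg cultures differed from its mean in the other 4 conditions for 16 members, where 8.95% of genes were called more negative and 7.75% more positive. No group held 4 or more libraries, so single libraries were not tested against their group.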

How the results depend on the processing

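Counts of called members are given here by setting, beside the counts of the report. The shares of all genes called under these settings are not given, so a change of count cannot be read as particular to the members. In set 2 alone, 23 members were called for the STAT5 vector in deficient cells (40 over all sets), 1 for that vector in wild-type cells (5), 10 for MYC in deficient cells (17), 7 for MYC against STAT5 (35), 9 for the difference between STAT5 effects (34) and 0 for that between MYC effects (2). In set 3 alone, 0 were called for the STAT5 vector in wild-type cells, 9 for AKT in deficient cells (21) and 0 for the difference between AKT effects (4). In set 5 alone, 3 were called for the STAT5 vector in wild-type cells, 8 for restored cells against wild type (13), 8 for MYC and 11 for AKT in deficient cells, and 0 for the MYC difference. A set alone has fewer libraries. DESeq2 called 10 members for the STAT5 vector, 2 for MYC (0 by edgeR) and 5 for AKT (1) in wild-type cells, 26 for MYC added to STAT5 (16), 22 for the mean STAT5 loss in set 4 (14), 7 in Th0 (3) and 4 in Th17 (2). A fit of only the libraries compared called 0 for the MYC difference, 3 for AKT in wild-type cells, 27 for MYC added to STAT5, 3 in Th1 (6), 1 in Th2 (7) and 2 for the AKT difference. DESeq2's size factors called 1 for the MYC difference, 2 for AKT in wild-type cells and 5 in Th0, and no filter called 0 for the MYC difference. Without the first 4 libraries that stood apart, 13 were called for the STAT5 vector in wild-type cells and 1 for the MYC difference. Without all 5, these were 18 and 5, with 2 for MYC and 5 for AKT in wild-type cells and 26 for MYC added to STAT5. The cause was not tested.

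With the replicate block, AKT in wild-type cells had 3 members called, and the other counts stayed within 1.5 times (37 of 37 for STAT5 loss, 16 of 17 for MYC in deficient cells, 17 of 16 in iTreg). The block fits used a trended dispersion. Same-numbered libraries deviated together only in part in sets 3, 5 and 7 (20 of 28, 33 of 66 and 2 of 3 pairs above 0.1) and not in set 1 (0 of 3), where the number is only a name.

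With 1 library left out at a time, the counts lay between 37 and 40 for IL-2, 37 and 38 for STAT5 loss, 39 and 40 for the STAT5 vector in deficient cells and 2 and 14 in wild-type cells, 11 and 14 for restored cells, 12 and 16 for MYC in deficient cells and 0 and 0 in wild-type cells, 0 and 4 for the MYC difference, 11 and 17 for AKT in deficient cells and 1 and 3 in wild-type cells, 2 and 5 for the AKT difference, 32 and 35 for the STAT5 difference, 30 and 35 for MYC against STAT5 and 0 and 16 for MYC added. They lay between 9 and 21 for the mean of set 4, 1 and 2 in Th0, 3 and 8 in Th1, 0 and 8 in Th2, 1 and 2 in Th17, 8 and 16 in iTreg, 9 and 24 for iTreg against the other conditions, 9 and 14 in Treg, and 32 and 35 and 35 and 37 in the 2 genotypes with 1 allele. A lone library is assumed to vary like the other groups, and in every model these fits kept the trended dispersion of the full fit.

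Single members reversed in set 2 alone: against wild type, STAT5-restored cells gave -0.41 for Eif1a, -0.49 for Eif4a1 and -0.46 for Eif4e, and MYC against STAT5 gave 0.19 for Eif1a. Among the other values of single members under these alternatives, 2530 kept direction and side of the threshold, 131 lost the call and 103 gained one. Without the low-count filter the median of all genes moved by 0.12 for STAT5 loss, and by -0.16, -0.27 and 0.14 for the set 4 mean, Th2 and iTreg against the others, and in set 5 alone by -0.10 for STAT5 loss and 0.14 for MYC against STAT5. Most groups had 2 libraries, and the precision of their values rests on the spread shared with the other groups.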
